A study of Homo sapiens with 28 samples.

Results

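The signal recognition particle and its receptor were followed in U2OS, a human osteosarcoma cell line, through 8 genes: SRP9, SRP14, SRP19, SRP54, SRP68 and SRP72 of the particle, and SRPR (SRPRA in current annotation) and SRPRB of the receptor. They are 8 of the 19050 genes targeted in a pooled CRISPR knockout screen, and all 44 of their guides among its 109367 guides were taken, as were their 8 transcripts among the 25807 gene symbols of an RNA-seq table. The family was selected on a measured value: summed SRP14 guides had been seen to be low in p53 knockout cells after 96 h without drug, relative to the start. Every screen value that uses the p53 knockout libraries at the start or without drug is therefore given as a description, with no test.

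The screen counted guides in genomic DNA of cells with wild-type p53 (WT) and of a p53 knockout line (KO), at the start (T0), after 96 h with the solvent DMSO, and after 96 h with 5 µM etoposide, a topoisomerase II poison that leaves DNA double-strand breaks. Each of the 6 groups had 3 libraries, lettered A to C. The labels do not say whether the KO line is 1 clone. RNA was taken from U2OS cells with wild-type p53 at T0 and after 8 h in medium conditioned by donor cells. The donors were U2OS cells with wild-type or knocked-out p53, given DMSO or 31.6 µM etoposide, so that the recipients of all 5 RNA groups had wild-type p53. Each RNA group had 2 libraries, lettered A and B.

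The signal recognition particle binds the hydrophobic signal sequence of a nascent secretory or membrane protein as it leaves the ribosome, slows elongation, and carries the ribosome to its receptor on the endoplasmic reticulum (ER). SRP9 and SRP14 form the dimer of the Alu domain, which acts on elongation. In the S domain SRP54 is the GTPase that recognises the signal sequence, SRP19 helps to place SRP54 on the particle's RNA, and SRP68 and SRP72 form a dimer. SRPR is the GTPase subunit of the receptor that pairs with SRP54, and SRPRB is the membrane-anchored GTPase subunit that holds SRPR at the ER.

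Screen libraries held 30437296 to 48230735 counts, and the median guide had 246 to 395 counts in a library. RNA libraries held 16825669 to 20290764 counts. The bone lineage genes COL1A1 (7030 to 10135 CPM, counts scaled to the library total) and SPARC (1805 to 2226 CPM) were abundant in all 10 RNA libraries, RUNX2 was at 10.5 to 55.8 CPM and ALPL at 20.8 to 81.6 CPM, whereas COL1A2, SPP1, BGLAP, SP7 and IBSP were at or under 6.23 CPM and PTPRC, EPCAM and PECAM1, markers of other cell types, at or under 2.74 CPM. The 2 libraries of medium from KO donors given DMSO differed most between replicates. Their chi-square per degree of freedom over genes was 12.8, against 1.90 to 5.09 in the other RNA groups. For many results that rest on them, it is stated what changed without each. The labels do not state whether libraries of a group are separate cultures, and p-values measure only the spread between these libraries, which may be technical.

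Growth without drug was first compared in WT cells, as DMSO at 96 h against T0. Guides against 6 of the 8 genes fell and guides against none rose (edgeR quasi-likelihood test on the counts summed over a gene's guides, two-sided, Benjamini-Hochberg adjusted over 19044 genes, threshold 0.05). Of all genes tested, 4.68% fell and 1.85% rose. The receptor subunit SRPR fell by 0.36 ± 0.08 on the log2 scale and the Alu-domain subunit SRP14 by 0.32 ± 0.05, and the median of the 8 genes was −0.21, against 0.02 over all genes. SRP54 and SRP72 did not pass the test, although scaling by non-targeting guides called SRP72 lower (−0.17, edgeR adjusted p = 0.025).

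Summed SRP14 guides stood at 58.5, 59.5 and 58.9 CPM in the 3 WT T0 libraries and at 49.6, 45.9 and 45.6 CPM in the 3 WT DMSO libraries. Every DMSO library lay below every T0 library, by 20.1% in the fitted means, and the change of −0.32 ± 0.05 had an adjusted p of 1.3e-06 in edgeR's test. Its partner SRP9 stood at 38.8, 41.4 and 39.3 CPM at T0 and at 33.9, 35.4 and 32.1 CPM in DMSO. These groups did not overlap either, and SRP9 fell by 0.24 ± 0.06 (edgeR adjusted p = 0.0071). The SRP9 call was lost without WT T0 library B (adjusted p = 0.076) and without WT DMSO library C (adjusted p = 0.062).

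Among the S-domain genes, SRP19 guides stood at 62.6, 66.6 and 63.4 CPM at T0 and at 57.5, 55.2 and 54.1 CPM in DMSO, and fell by 0.21 ± 0.05 (edgeR adjusted p = 0.0017). SRP68 guides stood at 44.4, 44.8 and 41.5 CPM at T0 and at 38.0, 37.1 and 37.7 CPM in DMSO, and fell by 0.21 ± 0.06 (edgeR adjusted p = 0.0092). Neither gene's groups overlapped. The SRP68 call was lost without WT T0 library A (adjusted p = 0.051) or B (adjusted p = 0.078). SRP72, the partner of SRP68, changed by −0.10 ± 0.06 (edgeR adjusted p = 0.36), and SRP54, the signal-sequence GTPase, by 0.04 ± 0.07 (edgeR adjusted p = 0.79).

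For the receptor, SRPR guides stood at 27.5, 28.9 and 29.7 CPM at T0 and at 20.5, 21.3 and 25.3 CPM in DMSO, without overlap, and the fall of 0.36 ± 0.08 had an edgeR adjusted p of 0.00041. SRPRB guides stood at 73.1, 73.7 and 77.1 CPM at T0 and at 66.6, 67.1 and 69.2 CPM in DMSO, and fell by 0.14 ± 0.04 (edgeR adjusted p = 0.035). That smaller change was past the threshold in 1 of the 6 fits that each left out 1 library, and its adjusted p ranged from 0.036 to 0.20 over them. The calls of SRP14, SRP19 and SRPR remained in all 6. Of the 8 genes, 7 had DMSO libraries that lay wholly below T0, as did 10.7% of all genes tested.

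**Figure D1:**
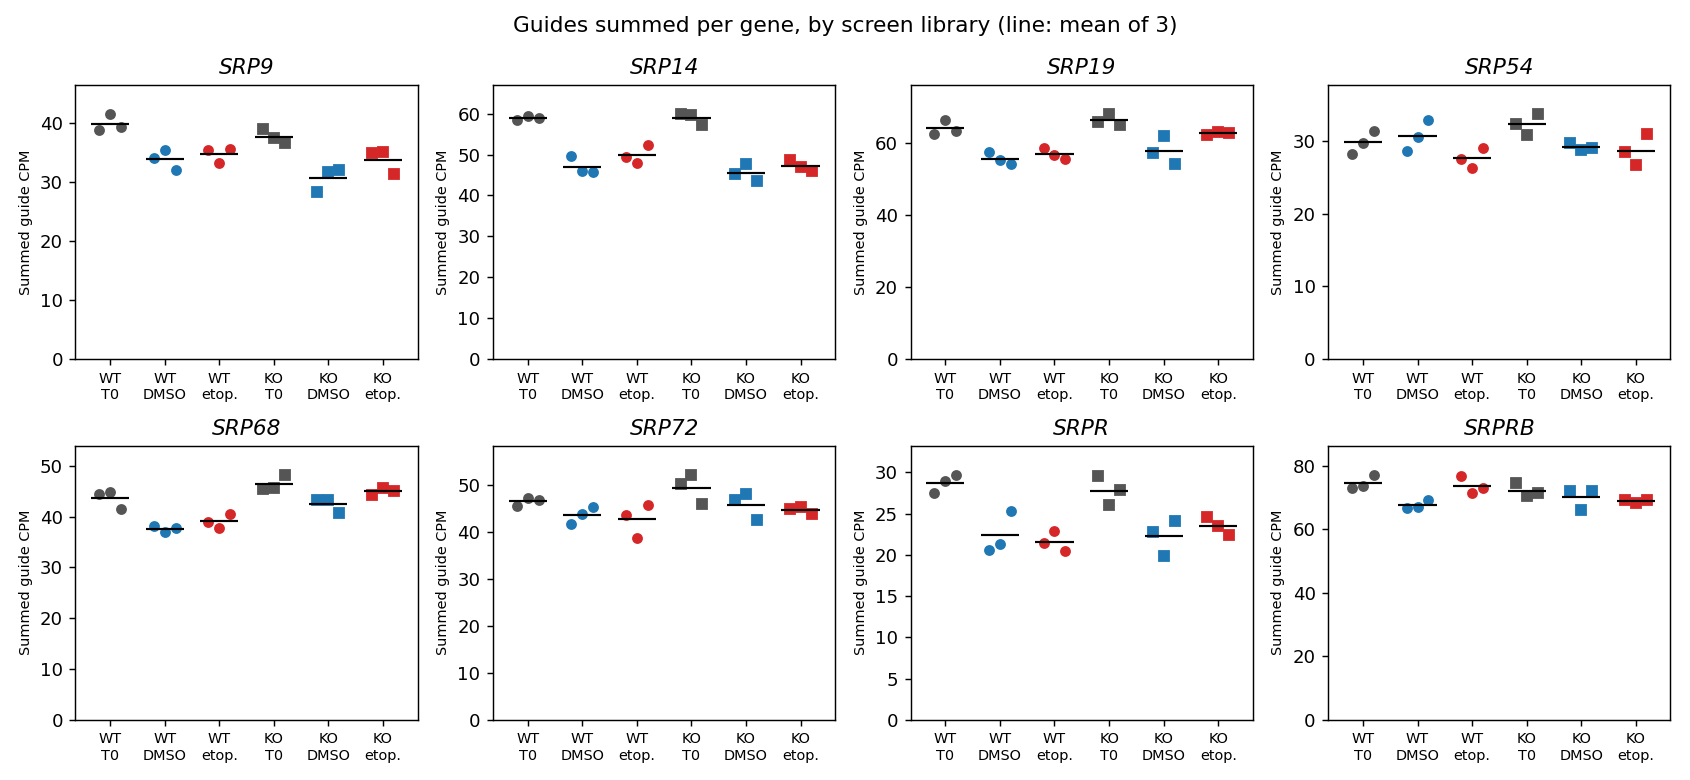
Guide counts summed per gene, in CPM, for the 8 genes in each of the 18 screen libraries. Circles are WT and squares KO libraries at T0 (grey), DMSO (blue) and etoposide (red), and the line is the mean of 3. SRP14 stands near 59 CPM at T0 in both lines and between 43.5 and 52.3 CPM in all 12 libraries taken at 96 h.

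Single guides of a gene differed widely. Of the 44 guides, 34 lay below 0 in WT growth, 9 were called lower and 1 was called higher (edgeR test guide by guide, adjusted over 109367 guides), where 1.37% of all guides were called lower and 0.168% higher. The 999 non-targeting guides had a median of 0.07 on the log2 scale, and their 5th and 95th percentiles were −0.11 and 0.25. Below that 5th percentile lay 31 of the 44 guides, against 24.7% of all targeting guides. The guides called lower were 3 of 6 for SRP14, 3 of 6 for SRP19, and 1 each for SRP9, SRPR and SRPRB.

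SRP14 was the most uneven gene, with an SD of 0.57 over the log2 changes of its 6 guides, against 0.18 to 0.38 for the other 7 genes. Guide HGLibA_47001 stood at 6.75, 6.31 and 5.90 CPM at T0 and at 3.38, 2.19 and 2.05 CPM in DMSO, a change of −1.30 ± 0.20 and the lowest of the 44 guides. HGLibA_46999 changed by −0.78 ± 0.13 and HGLibA_47000 by −0.83 ± 0.14, and all 3 were called lower. HGLibB_46942 changed by −0.44 ± 0.22 (edgeR adjusted p = 0.41 over all guides). In contrast, HGLibB_46943 stood at 15.8, 14.7 and 15.5 CPM at T0 and at 18.2, 15.2 and 15.6 CPM in DMSO (0.10 ± 0.09), and HGLibB_46944 changed by 0.14 ± 0.11. Those 2 guides had the highest and the third highest counts of SRP14 guides at T0, so the sum over guides moved less than the lower 4 guides did.

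**Figure D2:**
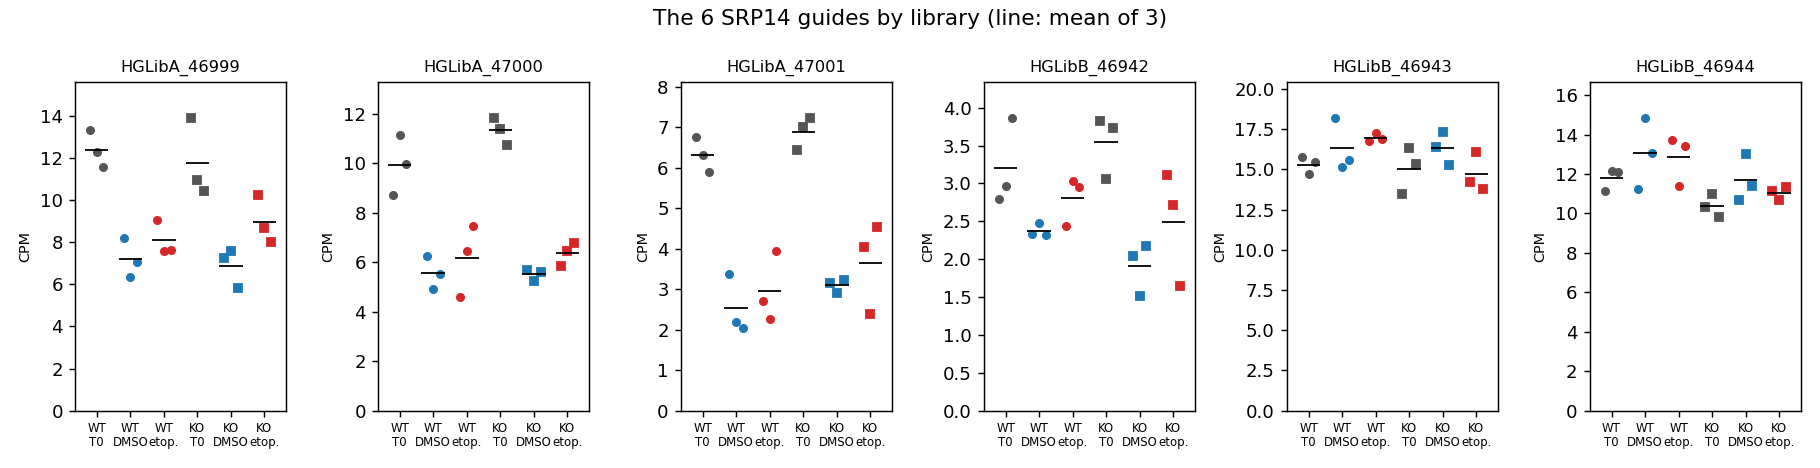
CPM of each of the 6 SRP14 guides in the 18 screen libraries, with WT as circles, KO as squares and the line as the mean of 3. The 3 HGLibA guides and HGLibB_46942 have lower means at 96 h than at T0 in both lines, while HGLibB_46943 and HGLibB_46944 stay near their T0 levels, at group means of 14.7 to 17.0 and 10.4 to 13.1 CPM.

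The other genes showed the same unevenness to a smaller degree. SRP9 guide HGLibA_47014 was called lower (−0.78 ± 0.18), HGLibB_46958 changed by −0.77 ± 0.22 (edgeR adjusted p = 0.056), and the other 3 SRP9 guides lay between −0.18 and 0.03. SRPR guide HGLibB_46971 was called lower (−0.75 ± 0.20), and all 5 SRPR guides lay below 0. SRP54 guides ran from −0.34 to 0.50, and HGLibB_46948, the highest, was the single guide called higher (edgeR adjusted p = 0.025). SRP72 guides ran from −0.39 to 0.19 with none called, and of the SRPRB guides HGLibA_47029 was called lower (−0.51 ± 0.12). By the prefix of the guide names, 7 of 21 HGLibA guides and 2 of 23 HGLibB guides were called lower, and 1 HGLibB guide was called higher. Shares by prefix over all guides were not computed, so whether this split is particular to these genes was not tested.

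**Figure D3:**
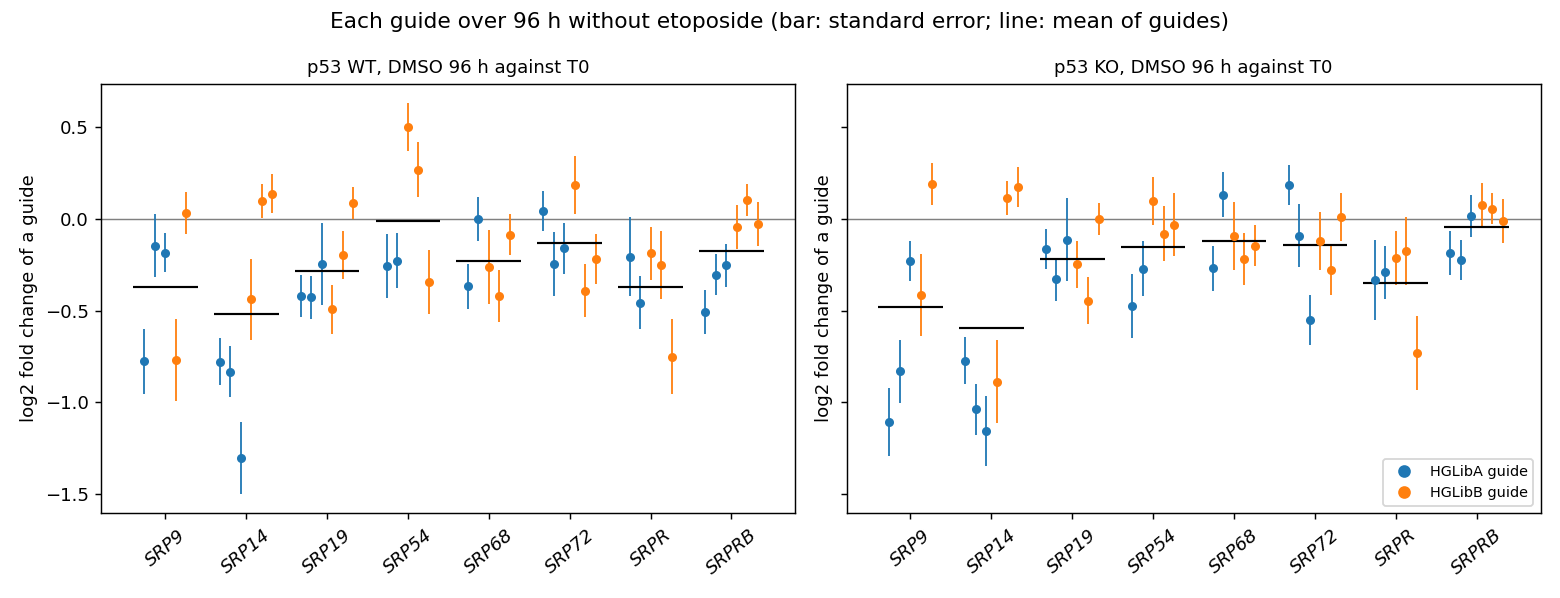
Log2 fold change of each of the 44 guides between T0 and 96 h in DMSO, in WT (left) and KO cells (right), with the standard error as a bar and the mean of a gene's guides as a line. Blue guides carry the HGLibA and orange guides the HGLibB prefix. The 4 lowest SRP14 guides lie at −0.44 to −1.30 in WT and at −0.77 to −1.15 in KO cells, and the other 2 lie above 0 in both.

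In KO cells the same comparison is a description, since it led to the choice of the family. Summed SRP14 guides stood at 59.8, 59.7 and 57.3 CPM at T0 and at 45.2, 47.6 and 43.5 CPM in DMSO, a change of −0.38 ± 0.05, which placed SRP14 at rank 45 from the lowest of 19044 genes. In that comparison 2.7% of all genes were past the threshold lower and 0.525% higher. SRPR changed by −0.32 ± 0.08, SRP9 by −0.29 ± 0.06 and SRP19 by −0.20 ± 0.05. The other 4 genes lay between −0.15 and −0.04. All 8 were below 0, with a median of −0.17 against 0.01 over all genes, and 33 of the 44 guides were below 0. Below the 5th percentile of the non-targeting guides lay 26 of the 44, against 18.8% of all targeting guides. SRP9 guides HGLibA_47014 (−1.11 ± 0.19) and HGLibA_47015 (−0.83 ± 0.17) were the lowest outside SRP14, and in WT cells HGLibA_47015 had changed by −0.15 ± 0.17.

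KO and WT growth differed by −0.19 ± 0.10 for SRP54 (KO minus WT) and by 0.10 ± 0.06 for SRPRB. For the other 6 genes the difference lay between −0.05 and 0.08, with standard errors of 0.07 to 0.11. At T0 the KO and WT libraries differed by −0.09 to 0.11 over the 8 genes, and SRP14 stood at 58.9 ± 1.45 CPM in KO and 59.0 ± 0.492 CPM in WT cells (SD, n = 3). None of these differences was tested.

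Etoposide was then compared with DMSO at 96 h in WT cells. No gene of the family was called by edgeR, where 1.66% of all genes were called higher and 0.362% lower, and 2 of the 8 had an unadjusted p under 0.05. DESeq2 called 0 as well. The values ran from −0.15 ± 0.07 for SRP54 to 0.12 ± 0.04 for SRPRB (edgeR adjusted p = 0.30 and 0.17). SRPRB guides stood at 76.7, 71.3 and 72.9 CPM with etoposide, above all 3 DMSO libraries, the 1 gene of the 8 whose libraries lay wholly higher, as did 8.06% of all genes tested. None of the 44 guides was called, where 0.341% of all guides were called higher and 0.0311% lower. In edgeR 3 guides had an unadjusted p under 0.05, all above 0: HGLibA_47029 of SRPRB (0.30), HGLibB_46956 of SRP72 (0.30) and HGLibB_46958 of SRP9 (0.52). With libraries scaled to the non-targeting guides SRPRB was called higher (0.17, edgeR adjusted p = 0.012). SRP14 stood at 49.3, 47.98 and 52.3 CPM with etoposide, which overlapped the DMSO libraries, and changed by 0.08 ± 0.05. The values were 0.06 for SRP68, 0.04 for SRP9, 0.03 for SRP19, −0.03 for SRP72 and −0.05 for SRPR. In KO cells etoposide against DMSO gave −0.03 to 0.14 over the 8 genes, the highest for SRP9 (0.14 ± 0.06) and SRP19 (0.12 ± 0.05).

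Against T0, WT cells with etoposide showed lower guides for SRPR and SRP14, the 2 of 8 genes called, where 0.693% of all genes were called lower and 0.0683% higher. SRPR guides stood at 21.4, 22.9 and 20.4 CPM with etoposide, below all 3 T0 libraries, and fell by 0.41 ± 0.08 (edgeR adjusted p = 0.0003), the 9th lowest change of 19044 genes. SRP14 fell by 0.24 ± 0.05 (edgeR adjusted p = 0.0029), a call lost without WT etoposide library B (adjusted p = 0.075). SRP19 changed by −0.17 ± 0.05 (edgeR adjusted p = 0.063) and SRP9 by −0.20 ± 0.06 (edgeR adjusted p = 0.14). Both were called with scaling to the non-targeting guides, with the 6 libraries compared alone and with DESeq2. Calls over all genes also rose in those settings, from 145 to 289, 340 and 240. The others were −0.16 for SRP68, −0.13 for SRP72, −0.11 for SRP54 and −0.02 for SRPRB, so that all 8 values were below 0. The comparisons with DMSO and with T0 share libraries, so their values are set side by side and not as separate support.

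Single guides gave 4 calls in that comparison, all lower, where 0.101% of all guides were called lower and 0.000914% higher. They were the 3 HGLibA guides of SRP14, at −1.09 ± 0.19, −0.69 ± 0.14 and −0.62 ± 0.13, and HGLibB_46945 of SRP19, which stood at 7.26, 8.51 and 8.35 CPM at T0 and at 5.11, 4.51 and 5.62 CPM with etoposide (−0.67 ± 0.14). By prefix, 21 of 21 HGLibA guides (median −0.28) and 12 of 23 HGLibB guides (median −0.0059) lay below 0 in WT cells. Shares by prefix over all guides were not computed here either, so whether the split is particular to these genes was not tested. In KO cells etoposide against T0 gave −0.32 ± 0.05 for SRP14, −0.24 ± 0.08 for SRPR and −0.17 to −0.05 for the other 6 genes.

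A list of 52 other genes of ER targeting and translocation was set beside the family. In WT growth 12 of the 52 (23.1%) were called lower and 0 higher, where 4.68% of all genes were called lower and 1.85% higher. The list median was −0.05. The 3 with the smallest p were ASNA1 (−0.45 ± 0.06), the ATPase that delivers tail-anchored proteins to the ER, and TMEM258 (−0.33 ± 0.05) and DDOST (−0.33 ± 0.06), subunits of the oligosaccharyltransferase that glycosylates proteins as they enter the ER. By group, 5 of 12 oligosaccharyltransferase genes, 3 of 10 genes of the Sec61 channel and its associated factors, 2 of 10 of the ER membrane protein complex and 2 of 7 of the tail-anchored pathway were called lower, while 0 of 5 signal peptidase genes, 0 of 4 of the TRAP complex and 0 of 3 of the nascent polypeptide-associated complex were. With etoposide against DMSO the oligosaccharyltransferase subunit STT3A alone was called, and it was higher (0.27 ± 0.06). It made up 1.92% of the list, where 1.66% of all genes were called higher and 0.362% lower. Against T0 only ASNA1 (−0.38 ± 0.06) and DDOST (−0.32 ± 0.06) were called, both lower. They made up 3.85% of the list, where 0.693% of all genes were called lower and 0.0683% higher.

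ASNA1 was also among the genes whose guide levels ran most like those of SRP14 over the 18 screen libraries. By Pearson's r of the mean log2 CPM of a gene's guides, the 5 nearest of 19043 genes were GPN3 (0.94), ASNA1 (0.94), GUK1 (0.93), TRAPPC1 (0.93) and PFDN2 (0.92), and the median gene was at −0.01. Within the family SRP9, the dimer partner, was nearest (r = 0.82, rank 60), followed by SRPR (0.77, rank 135) and SRP19 (0.72, rank 231). SRPRB was at 0.60, SRP72 at 0.58, SRP54 at 0.49 and SRP68 at 0.45. These are descriptions over libraries that share 6 groups and their depths. The 18 libraries include those of KO cells at T0 and in DMSO, in which SRP14 had been seen low. A gene whose guides fell between T0 and 96 h ranks high here, so the ranks are not separate from the choice of the family.

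Transcripts of all 8 genes were measured in U2OS cells with wild-type p53, and all 8 passed the filter on low counts. Per kilobase of gene length, the mean level over the 10 libraries was highest for SRP14 (135 ± 16.9 CPM per kb, SD, n = 10). SRP72 (76.6 ± 7.26) and SRPR (68.9 ± 10.4) came next, a pair within each other's spread, then SRP9 (54.8 ± 5.17), SRP68 (42.4 ± 5.04) and SRP54 (23.5 ± 1.63 CPM per kb). SRPRB (14.3 ± 2.95) and SRP19 (11.2 ± 2.01 CPM per kb) were lowest, and their ranges over the 10 libraries overlapped. Each SD spans all 5 RNA groups, so it mixes differences between media with those between replicates. RefSeq names 5 pseudogenes of SRP14, 3 of SRP68, 2 of SRP72 and 1 of SRP9, and whether reads or guides of these genes are shared with them was not tested.

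Medium from WT donors given etoposide was compared with medium from WT donors given DMSO. Transcripts of SRPRB, SRP19, SRP14 and SRP68 were higher, 4 of the 8 genes, and none was lower (edgeR quasi-likelihood test over 15391 genes, Benjamini-Hochberg adjusted, threshold 0.05). Of all genes tested 16.1% were higher and 18.5% lower, so that changes were common in this comparison. The median of the 8 genes was 0.20 on the log2 scale, against 0.01 over all genes.

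SRPRB transcripts stood at 44.0 and 43.5 CPM in etoposide medium and at 31.3 and 30.4 CPM in DMSO medium, 41.8% higher in the fitted means, and rose by 0.50 ± 0.09 (edgeR adjusted p = 0.00029). SRP19 stood at 42.8 and 38.5 CPM against 31.6 and 30.4 CPM, and rose by 0.39 ± 0.09 (edgeR adjusted p = 0.0023). Both calls held in each of the 4 fits that left out 1 library. SRP14 stood at 186 and 178 CPM against 141 and 163 CPM, and rose by 0.26 ± 0.08 (edgeR adjusted p = 0.015). It was not called without WT DMSO library A (adjusted p = 0.24) or WT etoposide library A (adjusted p = 0.11). SRP68 rose by 0.20 ± 0.07 (edgeR adjusted p = 0.034), a call lost in all 4 such fits, at adjusted p-values of 0.077 to 0.20. SRPR changed by 0.19 ± 0.08 (edgeR adjusted p = 0.076), SRP54 by 0.15 ± 0.08, SRP9 by 0.03 ± 0.10 and SRP72 by −0.14 ± 0.07.

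With medium from KO donors, etoposide against DMSO also gave 4 genes higher and none lower, namely SRPR, SRPRB, SRP54 and SRP19, where 18.8% of all genes were higher and 18.4% lower. SRPR transcripts stood at 253 and 281 CPM in etoposide medium and at 208 and 185 CPM in DMSO medium, and rose by 0.44 ± 0.08 (edgeR adjusted p = 0.00025). SRPRB stood at 50.7 and 55.4 CPM against 36.9 and 42.7 CPM, and rose by 0.41 ± 0.09 (edgeR adjusted p = 0.0011). Each of the 2 receptor genes was called in all 4 fits without 1 library, including those without a KO DMSO library. SRP54 stood at 56.4 and 58.5 CPM against 49.3 and 47.6 CPM, and rose by 0.25 ± 0.08 (edgeR adjusted p = 0.016). It was not called without KO DMSO library B (adjusted p = 0.0501) or KO etoposide library B (adjusted p = 0.093). SRP19 rose by 0.25 ± 0.09 (edgeR adjusted p = 0.036) and was called in 0 of the 4 fits, at adjusted p-values of 0.051 to 0.16, and not by DESeq2 (adjusted p = 0.081). SRP9 (0.20 ± 0.10) was called without KO DMSO library A (adjusted p = 0.014) and SRP68 (0.14 ± 0.07) without KO DMSO library B (adjusted p = 0.023). SRP14 changed by −0.02 ± 0.08 and SRP72 by −0.0052 ± 0.07.

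**Figure D4:**
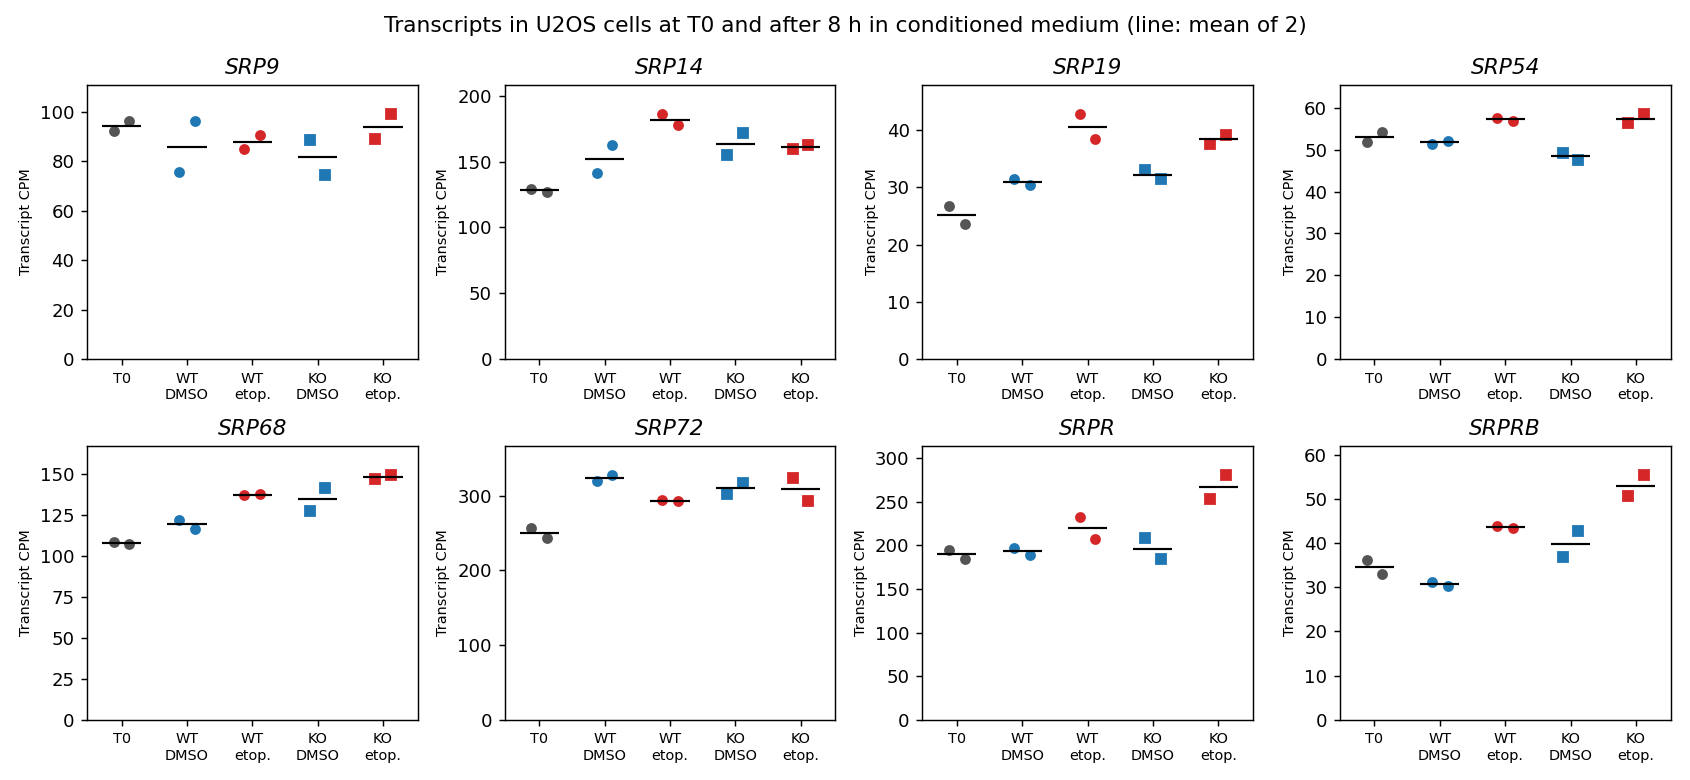
Transcript CPM of the 8 genes in each of the 10 RNA libraries, at T0 (grey) and after 8 h in medium from donors given DMSO (blue) or etoposide (red), with media of WT donors as circles, media of KO donors as squares and the line as the mean of 2. SRPRB is at 43.5 to 55.4 CPM in the 4 etoposide libraries and at 30.4 to 42.7 CPM in the 4 DMSO libraries.

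**Figure D5:**
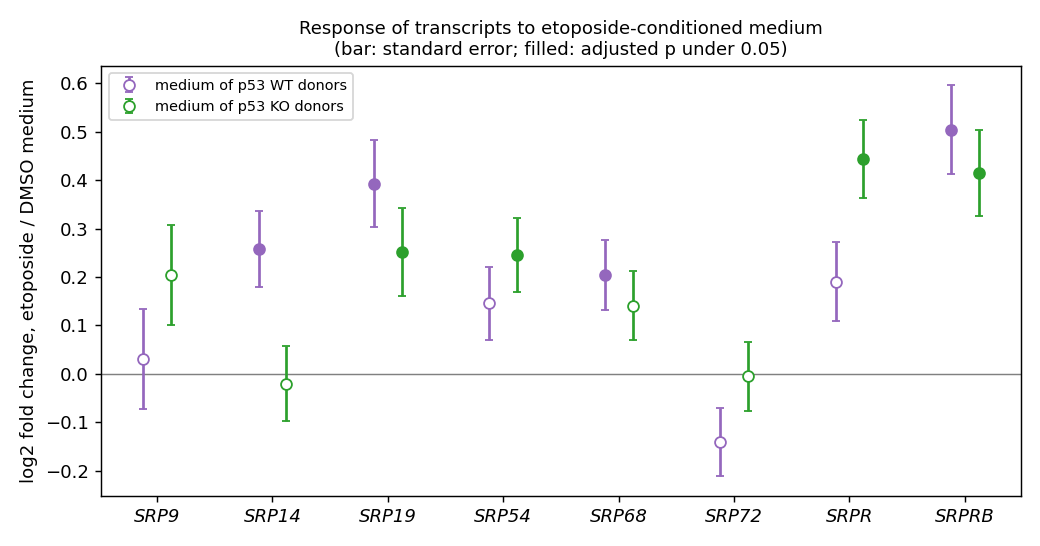
Log2 fold change of each transcript between etoposide and DMSO medium, with its standard error, for media of WT (purple) and KO donors (green). Filled points passed the adjusted threshold, and SRP19 and SRPRB are filled in both media.

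The effect of etoposide did not differ detectably between the 2 donor genotypes: the interaction was called for 0 of the 8 genes by edgeR and by DESeq2, where 1.5% of all genes were called higher and 0.617% lower. Unadjusted p-values were under 0.05 for SRP14 (−0.28 ± 0.11, KO minus WT, edgeR adjusted p = 0.18) and SRPR (0.25 ± 0.11, edgeR adjusted p = 0.24). Without KO DMSO library A both passed the threshold, SRP14 at −0.37 (adjusted p = 0.018) and SRPR at 0.32 (adjusted p = 0.045), and no other fit without 1 library called either. In that fit 4.99% of all genes were called higher and 5.5% lower. In the fit of all libraries the other 6 genes were at 0.17 for SRP9, 0.13 for SRP72, 0.10 for SRP54, −0.06 for SRP68, −0.09 for SRPRB and −0.14 for SRP19.

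Etoposide media of KO and WT donors were compared directly. SRPR (0.28 ± 0.08, edgeR adjusted p = 0.028) and SRPRB (0.28 ± 0.09, edgeR adjusted p = 0.043) were higher in medium of KO donors, where 8.5% of all genes were higher and 5.57% lower. SRPR stood at 253 and 281 CPM with KO medium and at 232 and 208 CPM with WT medium. SRPR was not called without WT etoposide library B (adjusted p = 0.25) or KO etoposide library B (adjusted p = 0.21), and SRPRB was called in 0 of the 4 fits without 1 library, at adjusted p-values of 0.086 to 0.25. The authors' deposited table for this comparison gives SRPR a log2 fold change of 0.27 with an adjusted p of 0.021, and SRPRB one of 0.28 with an adjusted p of 0.079. In edgeR the other genes, none called, were at 0.11 for SRP68, 0.10 for SRP9 and 0.07 for SRP72, 0.0048 for SRP54, −0.08 for SRP19 and −0.17 for SRP14.

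DMSO media of KO and WT donors gave 0 of 8 calls in edgeR, where 0.793% of all genes were higher and 0.767% lower, with 2 unadjusted p-values under 0.05. SRPRB stood at 36.9 and 42.7 CPM with KO medium and at 31.3 and 30.4 CPM with WT medium (0.37 ± 0.09, edgeR adjusted p = 0.0508), and DESeq2 called it higher (0.38, adjusted p = 0.032). Without KO DMSO library A it was called (0.50, adjusted p = 0.00026), as was SRP68 (0.28, adjusted p = 0.0075). Of all genes, 12% were called higher and 7.33% lower in that fit. Neither was called without KO DMSO library B. With all libraries the other genes were at 0.17 for SRP68, 0.10 for SRP14, 0.06 for SRP19, 0.02 for SRPR, −0.06 for SRP72, −0.08 for SRP9 and −0.10 for SRP54.

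Against T0, recipients in WT DMSO medium had higher SRP72 (0.37 ± 0.07, edgeR adjusted p = 0.00046), SRP19 (0.30 ± 0.09, edgeR adjusted p = 0.018) and SRP14 (0.25 ± 0.08, edgeR adjusted p = 0.02), 3 of 8, where 17.8% of all genes were higher and 17.6% lower. SRP72 stood at 319 and 327 CPM in DMSO medium and at 257 and 243 CPM at T0, and was called in all 4 fits without 1 library. SRP14 and SRP19 were each called in 1 of those 4 fits. SRP14 was called without WT DMSO library A, and SRP19 without T0 library A. Values of genes not called were 0.14 for SRP68, 0.02 for SRPR, −0.04 for SRP54, −0.13 for SRP9 and −0.17 for SRPRB. In WT etoposide medium 6 of 8 genes were higher than at T0, where 19.2% of all genes were higher and 21.8% lower. SRP19 rose by 0.69 ± 0.09, from 26.8 and 23.5 CPM at T0 to 42.8 and 38.5 CPM. SRP14 rose by 0.51 ± 0.08 and SRP68 by 0.35 ± 0.07, and these 3 genes were called in all 4 fits without 1 library. SRPRB (0.34 ± 0.09), SRP72 (0.23 ± 0.07) and SRPR (0.21 ± 0.08) were also higher, while SRP54 (0.11 ± 0.08) and SRP9 (−0.10 ± 0.10) were not called. Without T0 library B these last 3 were not called (adjusted p = 0.093, 0.15 and 0.24). SRP72 was also not called without WT etoposide library A (adjusted p = 0.061) or B (0.057), nor SRPR without T0 library A (0.089) or WT etoposide library A (0.33). The 2 comparisons with T0 share the T0 libraries, and the comparisons of WT media share theirs with them.

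Of the 52 other ER targeting genes, 10 (19.2%) were higher and 4 (7.69%) lower with etoposide against DMSO medium of WT donors, where 16.1% of all genes were higher and 18.5% lower. SSR3, a subunit of the TRAP complex at the translocon, rose by 0.30 ± 0.07, SEC61A1, the channel's pore-forming subunit, by 0.28 ± 0.07, and SEC11C, a signal peptidase subunit, by 0.48 ± 0.13. TRAM2 fell by 0.77 ± 0.07, EMC9 of the ER membrane protein complex by 0.63 ± 0.13 and SEC61A2 by 0.42 ± 0.12. With media of KO donors 15 (28.8%) were higher and 6 (11.5%) lower, where 18.8% of all genes were higher and 18.4% lower. The counts with media of KO donors moved when either KO DMSO library was left out, which leaves 1 library in that group.

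In media of KO donors SSR3 rose by 0.67 ± 0.07 (0.56 without KO DMSO library A and 0.76 without B), MMGT1, a subunit of the ER membrane protein complex, by 0.70 ± 0.09 (0.76 and 0.63), and the ER chaperone DNAJC3 by 0.67 ± 0.10 (0.65 and 0.68). EMC9 fell by 1.01 ± 0.13 (−0.94 and −1.09), TRAM2 by 0.45 ± 0.07 (−0.52 and −0.41) and UBL4A of the tail-anchored pathway by 0.39 ± 0.09 (−0.54 and −0.26), and these 6 genes were called in both fits without a KO DMSO library. The list's medians were 0.11 with WT and 0.12 with KO media. In etoposide medium of KO against WT donors 7 of the 52 (13.5%) were higher and 0 lower, where 8.5% of all genes were higher and 5.57% lower. The 7 were led by SSR3 (0.68 ± 0.07), MMGT1 (0.55 ± 0.09) and TRAM2 (0.38 ± 0.07). Between DMSO media SSR3 alone of the list was called (0.31 ± 0.07, edgeR adjusted p = 0.039), where 0.793% of all genes were higher and 0.767% lower. Which list genes were called between DMSO media changed with the KO DMSO library left out, as did the number called over all genes.

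Against T0, WT DMSO medium gave 3 list genes (5.77%) higher and 10 (19.2%) lower, where 17.8% of all genes were higher and 17.6% lower. The higher were led by TRAM2 (0.59 ± 0.07), SEC63 (0.33 ± 0.08) and SGTA (0.22 ± 0.07). The lower were led by OST4 (−1.54 ± 0.08), SPCS2 (−0.49 ± 0.09) and TRAM1 (−0.42 ± 0.09). WT etoposide medium gave 9 (17.3%) higher and 8 (15.4%) lower, where 19.2% of all genes were higher and 21.8% lower. Here the higher were led by SSR3 (0.42 ± 0.07), SEC61A1 (0.37 ± 0.07) and SEC11C (0.66 ± 0.13). The lower were led by OST4 (−1.27 ± 0.08), EMC9 (−0.78 ± 0.13) and UBL4A (−0.38 ± 0.09). The interaction was called for 0 of the 52 by edgeR with all libraries, with 12 at an unadjusted p under 0.05. Of all genes, 1.5% were called higher and 0.617% lower there. Leaving out either KO DMSO library added calls both in the list and over all genes, with 1 library then left in that group.

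Promoters of SRP19 and SRPRB are shown because these were the genes called higher with etoposide in both media. They are the 250 bases before a transcription start in RefSeq's GRCh38.p14, which held entries for 7 of the 8 genes. The SRP19 window is chr5:112861037-112861286, plus strand, and the SRPRB window is chr3:133805565-133805814, plus strand, each written 5′ to 3′. The SRPRB window lies inside RefSeq's span of the gene (133784023 to 133828574), and the bases before that span were not searched. Capitals mark matches to the motifs described after the sequences.
SRP19: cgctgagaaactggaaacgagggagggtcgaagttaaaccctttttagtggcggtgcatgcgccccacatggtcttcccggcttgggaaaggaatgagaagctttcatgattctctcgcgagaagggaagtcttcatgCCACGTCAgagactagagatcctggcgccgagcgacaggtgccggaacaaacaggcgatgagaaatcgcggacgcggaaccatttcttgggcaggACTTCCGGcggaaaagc
SRPRB: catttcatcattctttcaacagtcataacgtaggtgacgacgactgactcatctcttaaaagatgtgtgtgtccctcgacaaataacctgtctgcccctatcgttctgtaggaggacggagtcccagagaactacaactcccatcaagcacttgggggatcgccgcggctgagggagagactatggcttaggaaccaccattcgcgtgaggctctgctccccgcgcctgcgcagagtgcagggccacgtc

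In SRP19 the first capitals begin 112 bases before the start and match the core of the unfolded protein response element TGACGTGG, on the opposite strand as CCACGTCA, and the second begin 17 bases before the start and match an ETS factor core CCGGAAGT, on the opposite strand as ACTTCCGG. The first was found in 0.729% and the second in 4.14% of 35116 RefSeq promoter windows that also include 50 bases after the start. The search on both strands covered in addition the ER stress elements ERSE and ERSE-II, whose last 5 bases CCACG are also the first of CCACGTCA, the E-box CACGTG, the NRF1 core, the cyclic AMP element TGACGTCA and the CCAAT box. None of the 8 motifs was found in the SRPRB window. A match describes letters in the window and says nothing of whether a factor bound there in these cells.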

How the data were processed

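Guides were counted in 18 screen libraries and transcripts in 10 RNA libraries. The authors deposited raw counts per guide and per gene symbol, with no normalization. Tools named in the submitters' processing notes, with no versions, are DESeq2 for both assays, Bowtie2 for guides, and the hg19 build for transcripts. For the RNA aligner, annotation and strand setting, and for the guide library, nothing is stated in these sources. The authors' deposited table of 1 comparison holds log2 fold changes, p-values and a test score per the file headers. Its fold changes follow those computed here for KO against WT etoposide media (r = 1.00 over 13604 genes), which identified the comparison.

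Models were fitted in edgeR 4.0.16 (quasi-likelihood, TMM scaling, R 4.3.3) over all 18 screen libraries (12 residual degrees of freedom) and all 10 RNA libraries (5). Screen counts were summed over guides for 19044 genes with at least 3 guides, and guides were also tested singly. The RNA filter (filterByExpr) kept 15391 genes. No listed guide had a mean under 62.6 counts, so guides with few reads may be missing. Log2 fold changes carry standard errors. With 2 or 3 libraries a group, small changes may go undetected. Other settings were DESeq2 1.42.0, limma 3.58.1 on guide means, DESeq2 size factors, scaling to 999 non-targeting guides, count filters, the libraries compared alone, a replicate block and leaving out each library. The RNA interaction was added after the other comparisons were set. The code was tested on simulated data.

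The 8 genes, the list of 52 and the tests were chosen with earlier results of these data known. All 8 genes are named in every tested comparison, with the 3 list genes of smallest p in each direction where called, and the 5 genes most like SRP14. RN7SL1 and RN7SL2 are not analysed here. A check of the targeted gene is not reported here. Replicate letters were not taken to pair libraries, because the labels tie them to no shared culture or day. Same-letter correlations of deviations from the group means were 0.0106 to 0.102 in the 18 screen pairs. They were low, but each was above those with other letters, so pairing in the screen is not excluded. In the RNA they were −0.0369 to 0.103. With 2 libraries a group, A and B give the same RNA value, so the 20 RNA pairs are not separate values.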

Additional observations from a re-analysis of the deposited data

Results flagged for a closer look

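SRPRB guides with etoposide lay on opposite sides of their DMSO mean in the 2 lines: every WT etoposide library lay above the mean of the WT DMSO libraries (mean difference 0.123 on the log2 scale) and every KO etoposide library lay below the mean of the KO DMSO libraries (−0.024). Neither change is a call: the WT value had an edgeR adjusted p of 0.17, and the fitted KO value was −0.02 ± 0.05 with overlapping groups and no test. The difference between the lines was not tested.

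SRP14 transcripts were arranged alike: both libraries in etoposide medium of WT donors lay above the mean of their DMSO medium (0.261) and both in that of KO donors below theirs (−0.018). The interaction in edgeR was −0.28 ± 0.11 with an adjusted p of 0.18, and the KO libraries compared overlapped. The KO change itself was −0.02 ± 0.08 (edgeR adjusted p = 0.87) and ranged from −0.12 to 0.06 over the other settings, so that no change is shown there. In the fits that left out 1 of the 8 libraries each, the SRP14 interaction ranged from −0.39 to −0.18.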

How the results depend on the processing

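Counts of genes called among the 8 moved as follows. WT growth gave 6, 7 when scaled to non-targeting guides (adding SRP72) and 3 to 5 without 1 library. WT etoposide against DMSO gave 0, and 1 when scaled to non-targeting guides. WT etoposide against T0 gave 2. It gave 4 when scaled to non-targeting guides, 4 with the 6 libraries compared alone, 4 with DESeq2 and 1 to 2 without 1 library. Etoposide against DMSO gave 4 with WT media (2 to 3 without 1 library) and 4 with KO media (2 with no filter, and 2 to 4 without 1 library). KO against WT etoposide media gave 2 (1 with DESeq2, and 0 to 1 without 1 library). KO against WT DMSO media gave 0, but 1 with DESeq2 size factors, with no filter, with DESeq2 and with the replicate block, and 0 to 2 without 1 library. WT DMSO medium against T0 gave 3 (1 to 2 without 1 library), WT etoposide medium against T0 gave 6 (3 to 5), and the interaction gave 0 (0 to 2). The cause was not tested. No tested value of a called gene changed sign.

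The replicate block gave 6, 0 and 3 calls in the 3 WT screen comparisons, adding SRP19 against T0 (adjusted p = 0.046), and in the RNA it added SRPRB between DMSO media (adjusted p = 0.046) and changed no other call. Same-letter libraries correlated best with each other in 18 of 18 screen pairs, a hint from the data and not from the design.

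Scaling to non-targeting guides moved all genes called in WT growth from 353 higher and 891 lower to 20 and 3035, and in WT etoposide against DMSO from 317 and 69 to 974 and 17, with median shifts over all genes under 0.1. Without KO DMSO library A, all genes called between DMSO media went from 240 to 3047 and those of the interaction from 326 to 1654. Without KO DMSO library B the former went to 11 and the latter to 1082, and without either WT DMSO library the former went to 0. Where a group kept 1 library, it was assumed to vary like the others.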
